A study of Schizosaccharomyces pombe with 7 samples.

Results

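The silent side of the mating-type contig is a stretch of 21210 bases of fission yeast (Schizosaccharomyces pombe) DNA that the arrays carried as a separate contig beside the chromosomes. Its members were the probes on that contig with both deposited coordinates between 20001 and 41210: 424 of the 43993 probes on the array, of 60 bases each and starting every 50 bases. The other 400 probes of the contig cover its mat1 side. Members were read in 11 windows of 2 kb, 10 of them with 40 probes and the last, of 1210 bases, with 24.

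The study compared 4 genotypes on 7 arrays: wild-type cells (3 arrays), fft3∆ cells (2 arrays), clr3∆ cells (1 array) and the double deletion fft3∆ clr3∆ (1 array). All cells grew in minimal medium at 30 °C with 8% glucose, were held with 15 mM hydroxyurea (HU) for 4 h, and then spent 2 h in 4% sucrose, still with HU, to induce H3 carrying a FLAG tag. Slide 1 held wild type 1 and fft3∆ 1, slide 2 held wild type 2 and fft3∆ 2, and slide 3 held wild type 3, clr3∆ and the double deletion. The labels name no other allele, give no allele of the mating-type region, and do not tell whether cultures were separate, so p-values here cover the array-to-array spread alone, and that spread may be technical. The single arrays of clr3∆ and of the double deletion have no replicate, and their tests assume that they vary like wild type and fft3∆.

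The mating type of fission yeast is set by the cassette at mat1, which is expressed, while the mat2 and mat3 cassettes beside it are kept silent as donors of sequence for switching. The silent cassettes and the DNA between them are packed into heterochromatin, which starts in part from cenH, an element that resembles the repeats of the centromeres. A pair of inverted repeats, IR-L and IR-R, flanks the domain, and B boxes in them, which recruit the transcription factor TFIIIC, help to bound it. Clr3 is a histone deacetylase of the SHREC complex that acts there, and Fft3 belongs to the Snf2 family of chromatin remodellers. HU is used to block replication, so tagged H3 is read as marking nucleosomes put together outside it, and the series is titled for Fft3 holding back this turnover. Whether any of this region replicated during the HU treatment was not measured.

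The files do not say what each base of the contig is, so the outer parts of the region were placed on chromosome II of the reference ASM294v3 by the offset at which the input signal best followed the GC content. The correlation was 0.79 over 49 probes of the left part, against 0.59 at the next best offset, and 0.68 over 94 probes of the right part, against 0.55. Matching the input profile to that of the chromosome II probes gave offsets that differed by 10 bases from these, which is the step of the search. Those probes were themselves placed by GC content, so the feature positions below may be off by more. The right offset was fitted to the right of the mat3 cassette and carried over to it. In all 179 members were placed. The other 245 lie between contig 22717 and 34926, a stretch of 12210 bases that the reference used here does not carry at this locus, so mat2 and cenH were given no position.

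The placed features, from left to right, were the left inverted repeat (contig 19480–21561, chrII:2129230–2131311), whose last 1561 bases belong to the region, and the mat3 cassette (34927–36260, chrII:2132467–2133800). The right inverted repeat followed (37478–39558, chrII:2135018–2137098). In the reference the inverted repeats are 99.9% identical over 2082 bases, and the mat3 cassette is 99.9% identical to mat1 over 1334 bases. The genes mat3-Mi (35046–35174) and mat3-Mc (35309–35854), which encode the mating-type proteins of M cells, lie in the cassette. Noncoding RNA genes overlap both repeats: SPNCRNA.389 (20053–20839) and SPNCRNA.5506 (20348–20934) the left one, and SPNCRNA.390 (37441–38990), SPNCRNA.5507 (38257–39023) and SPNCRNA.391 (39502–39584) the right one. To the right of the repeats lie SPNCRNA.1489, from 39989, and emc3, from 40779. A B box was searched on both strands as the capitals of the first sequence below, with any base allowed at the fourth of them. It occurred 1 time in each inverted repeat and 0 times in the mat3 cassette, and was found in 1.60% of 2181 windows of chromosome II of the length of the right repeat. The match in the left repeat, at chrII:2129481, lies before the first member, placed at chrII:2129751. Of the 2 repeats, only the right one therefore has its match within the region. B boxes that differ from this motif were not searched.

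The 3 stretches below, RefSeq sequence of ASM294v3 read on the plus strand, mark the edges to which the values refer. The first holds the B box match of the right repeat (capitals mark the motif, which reads on the minus strand). The second is the inner end of the left repeat (capitals mark the bases past the repeat, where input was missing on 4 arrays). The third is the left end of the mat3 cassette (capitals mark the bases shared with mat1).
Right inverted repeat, chrII:2136778-2136908: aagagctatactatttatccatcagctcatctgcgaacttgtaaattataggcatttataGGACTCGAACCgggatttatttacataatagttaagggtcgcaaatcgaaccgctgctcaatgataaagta
Left inverted repeat end, chrII:2131252-2131401: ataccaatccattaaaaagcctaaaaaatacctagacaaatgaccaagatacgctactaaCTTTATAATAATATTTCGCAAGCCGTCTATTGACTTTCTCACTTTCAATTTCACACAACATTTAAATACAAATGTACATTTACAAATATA
mat3 cassette start, chrII:2132407-2132556: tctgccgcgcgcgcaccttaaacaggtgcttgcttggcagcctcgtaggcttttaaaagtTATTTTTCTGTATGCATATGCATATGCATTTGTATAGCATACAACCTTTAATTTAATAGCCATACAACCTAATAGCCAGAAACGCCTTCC

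Over the whole array the median processed intensity was 1129 to 1363 for input and 1126 to 1358 for ChIP, at least 99.4% of probes were well above background in each channel, and 0 spots were saturated. Ratios below are log2 of ChIP over input, centred on the median of all probes of the array, so 0 is the typical probe of that array. Input is described first, because each ratio rests on it and it was not the same on all arrays.

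Input was missing from stretches that differed between the arrays of 1 genotype. A probe counts as without input where the green spot was not well above background. Wild type 1 and fft3∆ 1, the arrays of slide 1, had 66 and 68 such members, nearly all between contig 25301 and 28610. Of the 66 probes in that span 61 lacked input in wild type 1 and 63 in fft3∆ 1, and the mean log2 input there was −8.14 and −8.34 relative to the array median. Slide 1 also lacked input at 5 of the 6 probes from 31151 to 31460. On slides 2 and 3 input was missing from another place, the 22 probes from 21551 to 22660, which begin at the inner end of the left inverted repeat shown above. Of those 22 probes, 16 lacked input in wild type 2, 18 in fft3∆ 2, 21 in wild type 3 and 20 in clr3∆, and the mean log2 input was −7.54, −7.63, −7.82 and −7.80. In the double deletion 0 of the 424 members lacked input. ChIP spots were not well above background at about as many members: 68 on each array of slide 1, 18 in wild type 2, 19 in fft3∆ 2, 22 in wild type 3, 19 in clr3∆ and 0 in the double deletion.

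In runs of at least 3 neighbouring probes these losses made up 18 stretches over 6 arrays. Wild type 1 had runs at 25301–25510, 25551–27160, 27301–27810, 27851–28610 and 31251–31460. In fft3∆ 1 they lay at 25301–25510, 25551–27810, 27851–28510 and 31251–31460. The same 2 places were therefore lost on both arrays of slide 1. Wild type 2 had runs at 21551–21860 and 22401–22660, and fft3∆ 2 at 21551–21960 and 22301–22660. On slide 3 the runs of wild type 3 were 21551–22260 and 22301–22660, and those of clr3∆ 21551–22060, 22101–22260 and 22301–22660. The 3 wild-type arrays thus fall into 2 input states, and the double deletion is in another that no other array shares, so its genotype and its input state cannot be told apart. Counted as a log2 input at least 3 below the array median, the losses joined into 10 stretches. Of these, 8 lay at the places above, and 2 of 4 probes each lay at 39901–40110, in wild type 1 and the double deletion.

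**Figure D1:**
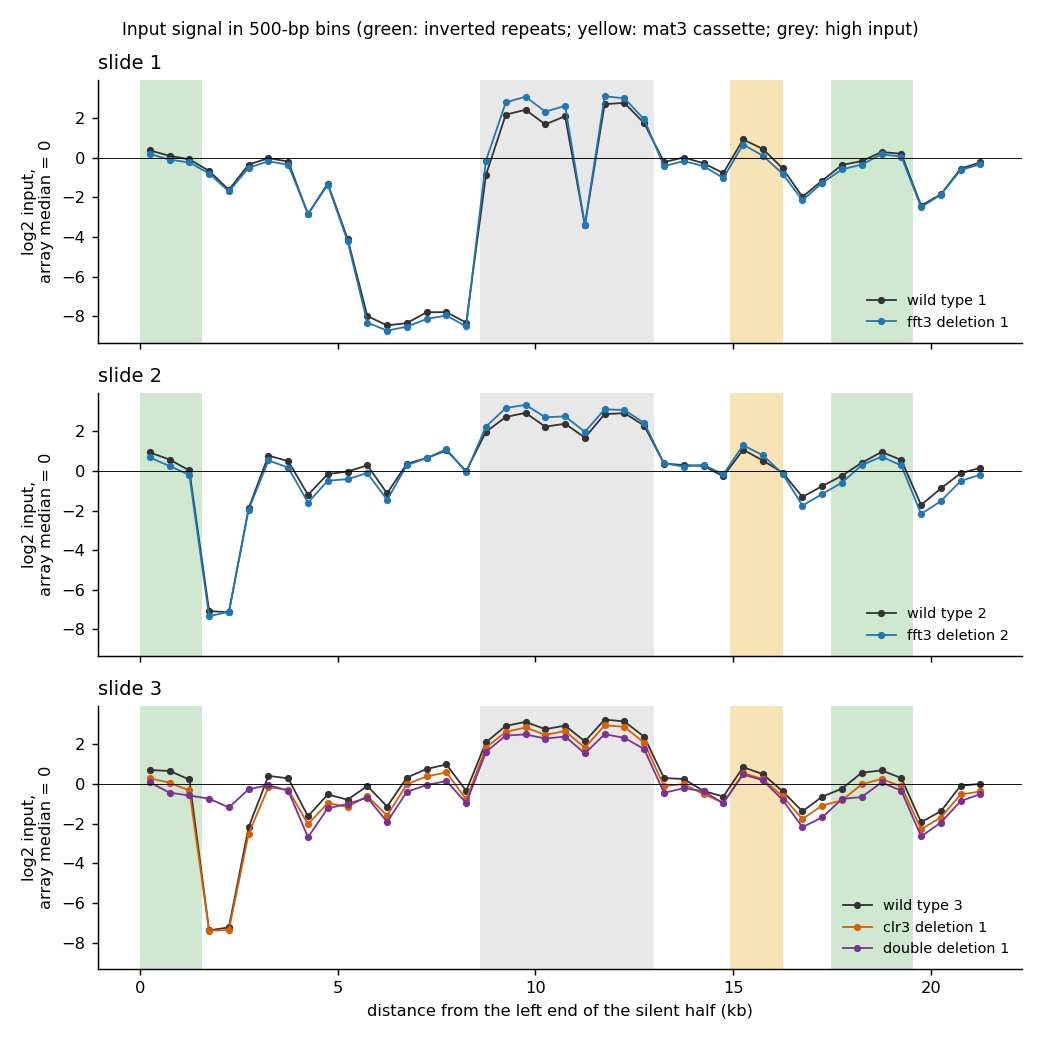
Input signal (log2, array median at 0) in bins of 500 bases against the distance from the left end of the region, with a panel for each slide and a line for each array. Slide 1 drops to about −8 in the middle of the left part, slides 2 and 3 drop just past the left inverted repeat, and the double deletion drops in neither place.

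Between 28611 and 33000 the mean input was instead above the array median on all 7 arrays. Over these 88 probes the mean log2 input was 1.48 in wild type 1, 1.91 in fft3∆ 1, 2.50 in wild type 2, 2.82 in fft3∆ 2, 2.83 in wild type 3, 2.54 in clr3∆ and 2.22 in the double deletion. That is 2.80 to 7.10 times the signal of the median probe. The stretch was delimited after its input had been seen, and what DNA these probes catch besides the contig was not tested.

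As a test of input, limma was run on every 2-kb window of the array, with all probes kept. It called 0 of the 11 member windows in any genotype against wild type (0 of 1105 windows array-wide each, 0%). At an unadjusted p under 0.05 were 2 member windows, both lower in the double deletion, against 46 lower and 24 higher of all 1105. With slide as a block, fft3∆ and clr3∆ again had 0 called member windows (1.18% and 1.09% of all windows called higher). Of the 11, 5 in fft3∆ and 6 in clr3∆ had an unadjusted p under 0.05. Of all 1105 windows, 29 higher and 17 lower did in fft3∆, and 18 higher and 21 lower in clr3∆. The input of clr3∆ was below that of wild type in all 11 windows of that fit, by −0.48 to −0.26. At an unchanged ChIP signal a different input gives a different ratio. The part of input in the ratios of clr3∆ and of the double deletion was not tested. In the double deletion 2 member windows were then called higher and 8 lower, against 6.61% and 3.35% of all windows.

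Over the whole region the H3-FLAG ratio was below the array median on all wild-type and fft3∆ arrays and above it in clr3∆ and the double deletion. The mean log2 ratio over usable members was −0.45 in wild type 1 (358 probes), −1.24 in wild type 2 (405) and −1.09 in wild type 3 (402). It was −0.09 in fft3∆ 1 (356 probes) and −0.78 in fft3∆ 2 (406). Each fft3∆ array lay above the wild type of its own slide, but the groups overlap, since wild type 1 was above fft3∆ 2. In clr3∆ the mean was 0.27 (401 probes) and in the double deletion 0.44 (416), above all 5 arrays of the other genotypes.

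The group means were −0.93 ± 0.42 in wild type (SD, n = 3) and −0.43 ± 0.48 in fft3∆ (SD, n = 2), a difference of 0.50. Permuting these 5 arrays exactly and two-sided gave p = 0.4, with 0.1 the smallest that its 10 splits allow. Within slide 1 the difference was 0.36 (1.28-fold), within slide 2 it was 0.47 (1.38-fold), and with slide as a block 0.41. Without fft3∆ 1 the difference was 0.15, and without fft3∆ 2 it was 0.84. Against wild type, clr3∆ differed by 1.20 and the double deletion by 1.37. Within slide 3 these were 1.36 (2.58-fold) and 1.53 (2.89-fold). The double deletion differed from clr3∆ by 0.17. The wild-type SD of 0.42 came mostly from wild type 1: the other 2 averaged −1.17, and against them alone, with slide 1 left out, fft3∆ 2 differed by 0.39, clr3∆ by 1.44 and the double deletion by 1.61.

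Most windows of the region ranked among those with the lowest H3-FLAG ratios of the array in wild type 2 and 3. In wild type 2, 9 of the 11 windows lay above at most 3.9% of the 2-kb windows of the array, and in wild type 3 the same 9 above at most 3.1%. The exceptions were the window from 34001, which holds most of the mat3 cassette, and the last one, at 8.0% to 16.7%. In wild type 1 only the windows from 28001, 30001 and 32001 ranked below 5%, at 1.4%, 1.9% and 4.2%. In clr3∆ the 11 windows ranked between 32.3% and 97.6%, and in the double deletion between 63.9% and 99.0%.

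**Figure D2:**
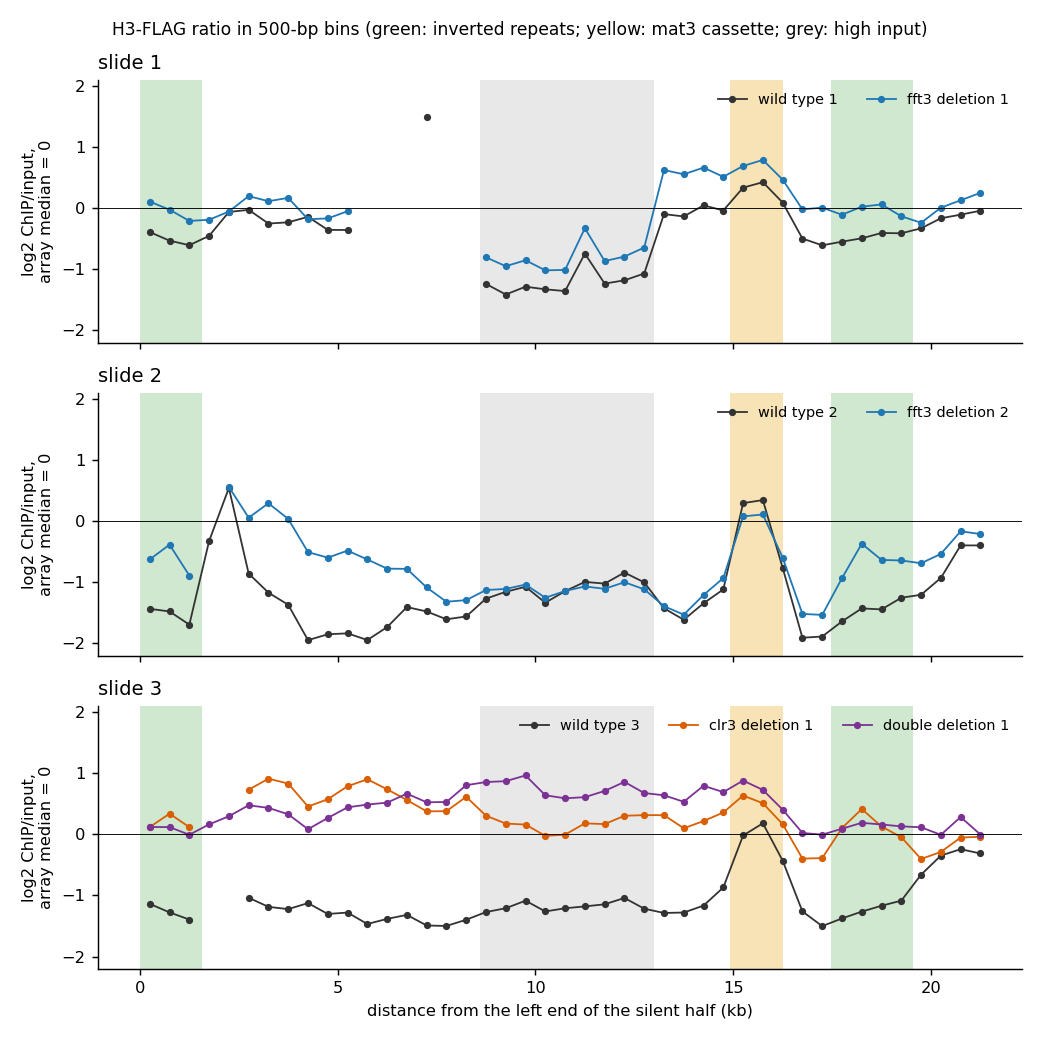
Log2 ratio of H3-FLAG ChIP to input (array median at 0) in bins of 500 bases with at least 3 usable probes, against the distance from the left end of the region, by slide. Wild type 2 and 3 lie near −1 to −2 in most bins and higher at the mat3 cassette, at the right end and, for wild type 2, beside the missing input, while clr3∆ and the double deletion lie between −0.40 and 0.96.

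At the left edge, the window from 20001, which holds the inner part of the left inverted repeat, read −0.50, −1.42 and −1.28 in wild type 1, 2 and 3. In fft3∆ 1 and 2 it read −0.08 and −0.64, in clr3∆ 0.18 and in the double deletion 0.10. On each slide the deletion arrays were above the wild type. The window from 22001 read −0.14, −0.94 and −1.11 in wild type, 0.10 and 0.18 in fft3∆, 0.80 in clr3∆ and 0.38 in the double deletion. Here both fft3∆ arrays were above all 3 wild-type arrays. On slides 2 and 3, apart from the double deletion, it rests on 28 to 31 probes, since the rest lacked input.

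The next windows lie in the stretch without a reference. From 24001 the ratio was −0.22, −1.89 and −1.29 in wild type, −0.10 and −0.55 in fft3∆, 0.67 in clr3∆ and 0.32 in the double deletion, with 27 usable probes on each array of slide 1. From 26001 slide 1 gave 0.89 in wild type 1 from 4 probes and no value in fft3∆ 1, which the fit then left out. On the other arrays that window read −1.55 in wild type 2, −1.42 in wild type 3, −0.99 in fft3∆ 2, 0.51 in clr3∆ and 0.56 in the double deletion. The value of wild type 1 stands apart there, on probes that nearly all lacked input.

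The windows from 28001 and 30001 had the smallest wild-type spread of the 11. In the first of them 28 and 29 of the 40 probes were usable on slide 1, and its mean log2 input, over all probes, was −1.14 in wild type 1 and −0.69 in fft3∆ 1, against 1.38 to 2.18 on the other arrays. From 28001 the wild-type arrays read −1.32, −1.26 and −1.24, and from 30001 −1.23, −1.12 and −1.20. In fft3∆ 1 and 2 the same windows read −0.87 and −1.14 from 28001, and −0.87 and −1.14 from 30001. In clr3∆ they stood at 0.31 and 0.08, and in the double deletion at 0.87 and 0.64, so the double deletion was the highest array in both.

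From 32001 the wild-type arrays parted again, at −0.62, −1.22 and −1.21, with −0.07 and −1.26 in fft3∆, 0.26 in clr3∆ and 0.68 in the double deletion. From 34001 they read 0.19, −0.47 and −0.47, with 0.66 and −0.49 in fft3∆, 0.43 in clr3∆ and 0.77 in the double deletion. In these 2 windows fft3∆ 1 was above its wild type and fft3∆ 2 was not. From 36001 wild type read −0.39, −1.55 and −1.14, fft3∆ 0.09 and −1.14, clr3∆ −0.13 and the double deletion 0.13.

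At the right edge the window from 38001, mostly right inverted repeat, read −0.41, −1.33 and −1.04 in wild type, −0.07 and −0.58 in fft3∆, 0.02 in clr3∆ and 0.15 in the double deletion. The last window, from 40001, read −0.12, −0.62 and −0.30, then 0.10 and −0.33, then −0.15 and 0.12. It had the smallest spread between genotypes of the 11 within slide 3.

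Loss of Fft3 alone gave higher ratios in 10 of the 11 windows, but none passed the test without a slide term. The differences from wild type ran from −0.29 in the window from 26001 to 0.88 in that from 22001, which was 0.88 ± 0.25 (SE, limma adjusted p = 0.594). The one negative difference rests on 4 probes of wild type 1 with no value for fft3∆ 1, and it was 0.57 with slide as a block and 0.50 with slide 1 left out. Differences were positive in 11 windows with the block and in 9 with slide 1 left out. limma called 0 of the 11 member windows, and array-wide it called 0.181% of 1105 windows higher and 0 lower. At an unadjusted p under 0.05, 4 member windows were higher, against 38 higher and 7 lower of all windows. The median difference was 0.35 over the members and −0.004 over all windows.

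The arrays of a slide deviated together, and with slide as a block 5 of the 11 windows rose in fft3∆, against 2.35% of all windows. These were the windows from 20001 (0.60, limma adjusted p = 0.000184), 22001 (0.68, adjusted p = 8.82e-06) and 24001 (0.73, adjusted p = 2.26e-06), and from 36001 (0.44, adjusted p = 0.0204) and 38001 (0.54, adjusted p = 0.00118). They lie at the 2 ends of the region, each with SE 0.12. That fit leaves 1 residual degree of freedom a window and gave all windows 1 common spread, so its p-values do not follow the windows' own scatter. With slide 1 left out, the difference in the window from 22001 was 1.21. In that fit fft3∆ is 1 array with no spread of its own, so its p-values would measure no spread of fft3∆. Without wild type 1 the windows from 20001, 22001 and 24001 were called, against 0.543% of all windows. None passed with a random block for slide (0 windows, against 0.452%).

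Within the slides fft3∆ followed different courses along the region. On slide 2 the difference from wild type was 0.91 to 1.46 in the 8 bins of 500 bases from 22501 to 26500, lay between −0.24 and 0.19 in the 15 bins from 28501 to 36000, and was 0.61 to 1.06 in the 4 bins from 37501 to 39500, in the right inverted repeat. On slide 1 it was −0.04 to 0.40 in the 6 bins with input from 22501 to 26500, 0.31 to 0.72 from 28501 to 36000 and 0.28 to 0.52 from 37501 to 39500. The largest differences on slide 2 were in the bins from 23001, 23501 and 24001 (1.46, 1.40 and 1.44). Slide 1 had usable input there and read 0.37, 0.40 and −0.04, so the slides differed where both had values. Only in the bins from 25501 and 26001 did slide 1 have no value to set beside slide 2.

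**Figure D3:**
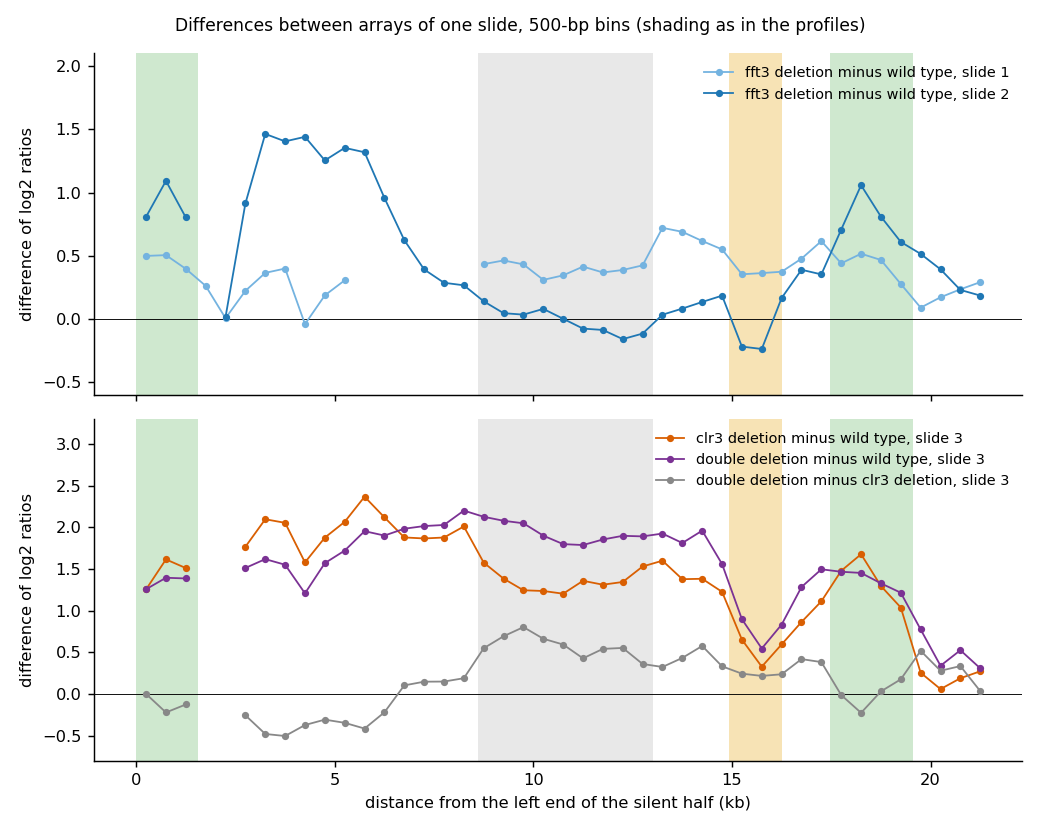
Differences of log2 ratios between arrays of the same slide in bins of 500 bases, against the distance from the left end of the region, with fft3∆ minus wild type above and the comparisons of slide 3 below. The slide 2 line peaks at 1.46 left of the middle and runs near 0 over the high-input stretch, where the double deletion lies above clr3∆.

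Loss of Clr3 gave higher ratios in all 11 windows, and 3 of them rose by the test, against 2.35% of the 1105 windows of the array called higher and 0 lower. The windows from 28001 and 30001, most of which lie in the stretch of high input, rose by 1.59 ± 0.14 (SE, limma adjusted p = 0.00188) and 1.26 ± 0.14 (adjusted p = 0.00213). Whether the signal of that stretch comes from this locus alone was not tested. The window from 22001 rose by 1.54 ± 0.31 (adjusted p = 0.0408). The median over the 11 was 1.24, against −0.02 over all windows, and 7 of the 11 had an unadjusted p under 0.05. The largest difference, 1.81 ± 0.50 in the window from 24001, did not pass (adjusted p = 0.178): the wild-type arrays there spanned −1.89 to −0.22.

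Against the wild type of its own slide, clr3∆ was higher by 0.90 to 1.97 in the 10 windows up to 40000 and by 0.15 in the last. With slide as a block the clr3∆ difference is this within-slide difference between single arrays. Its SE comes from wild type and fft3∆ on slides 1 and 2, pooled over all windows, so its p-values measure no spread of clr3∆. With slide as a block those 10 were called higher, against 4.89% of all windows, the smallest difference being that from 34001 (0.90 ± 0.18, SE, limma adjusted p = 1.51e-05). With slide 1 left out the same 10 were called, against 3.62% of all windows, and without wild type 1, 8, against 3.26%. A random block for slide gave 6 (3.53%). The call at 22001 was not made without wild type 2, wild type 3 or fft3∆ 1, when 2, 2 and 3 windows were called. With all members kept, those without input included, 1 window was called (2.17%), and with quantile normalization 5 (2.71%). In every one of these fits the last window was not called.

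The double deletion also gave higher ratios in all 11 windows, and 3 rose by the test: those from 28001 (2.15 ± 0.14, SE, limma adjusted p = 5.73e-05), 30001 (1.82 ± 0.14, adjusted p = 6.61e-05) and 32001 (1.69 ± 0.40, adjusted p = 0.0432). All 3 lie mostly or in part in the high-input stretch, whose source of DNA was not tested. Array-wide 4.34% of windows were called higher and 1.45% lower. The median over the 11 was 1.16, against −0.05 over all windows. Within slide 3 the double deletion exceeded wild type by 1.19 to 2.11 in the first 10 windows and by 0.42 in the last. With slide as a block these are again differences between single arrays, and their p-values measure no spread of the double deletion. The first 10 were called with slide as a block and with slide 1 left out (6.15% and 5.52% of all windows), and without wild type 1 also 10, against 5.52% higher and 1.27% lower. A random block for slide gave 6, against 5.52% higher and 2.17% lower. The call at 32001 was not made without wild type 2 or wild type 3. These differences share the wild-type arrays with those of fft3∆ and clr3∆.

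**Figure D4:**
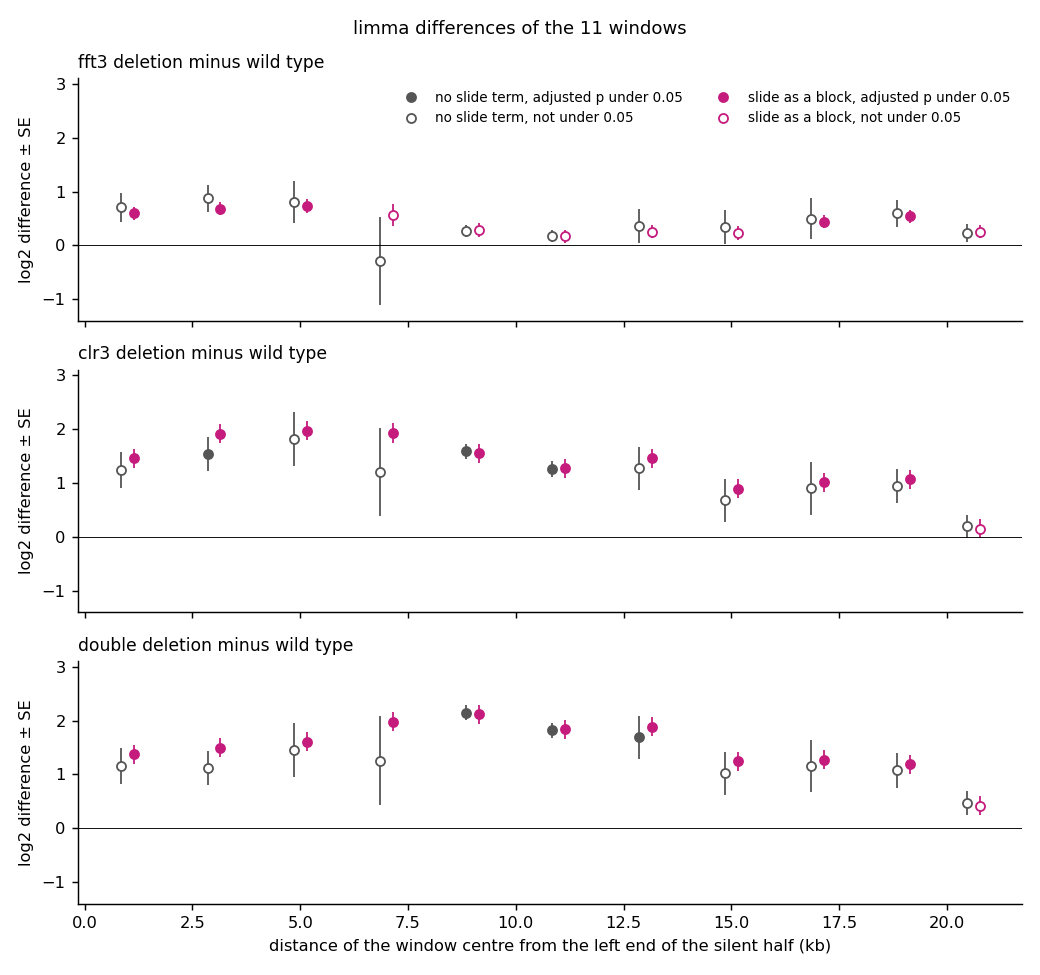
Differences from wild type in the 11 windows (log2, points, with the limma SE as bars) against the distance of the window centre from the left end of the region. Filled points have an adjusted p under 0.05: 0, 3 and 3 windows without a slide term, and 5, 10 and 10 with slide as a block. Of all windows, 0.181%, 2.35% and 4.34% were called higher without a slide term, and 2.35%, 4.89% and 6.15% with the block.

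Between the double deletion and clr3∆, arrays of the same slide, the sign changed along the region. Each is a single array, so the SE and p-values below take their spread from the wild-type and fft3∆ arrays. The double deletion was lower in the 3 windows from 20001 to 26000, by −0.08, −0.42 and −0.36, level at 26001 (0.05) and higher from 28001 on, by 0.56 in the windows from 28001 and 30001, 0.42 from 32001 and 0.13 to 0.34 further right. No window passed without a slide term (limma adjusted p of 0.353 or more, 2 of the 11 at an unadjusted p under 0.05, 0% of all windows called higher and 0.0905% lower). With slide as a block the windows from 28001 and 30001 passed as higher (0.56 ± 0.18, SE, limma adjusted p = 0.0315, and 0.56 ± 0.18, adjusted p = 0.0323), against 3.44% of all windows called higher and 2.53% lower. With slide 1 left out 0 passed, and with slide as a random block 0, against 0.633% of all windows higher and 0.814% lower.

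The effect of losing Fft3 was also compared between clr3∆ and wild-type backgrounds. The interaction, the double deletion minus clr3∆ less fft3∆ minus wild type, was −1.30 ± 0.45 (SE, limma adjusted p = 0.617) in the window from 22001. In that from 24001 it was −1.17 ± 0.73 (adjusted p = 0.655). Of the 11 windows 0 were called, against 0.0905% of all windows called lower. At an unadjusted p under 0.05, 1 of the 11 was lower, against 44 lower and 35 higher of all 1105. With slide as a block the windows from 22001 and 24001 were called lower, at −1.11 and −1.09 ± 0.22 (SE, limma adjusted p = 9.6e-05 and 0.000121), against 1.18% of all windows. That fit gave all windows 1 common spread, so its p-values do not follow the scatter of these 2 windows, and clr3∆ and the double deletion are single arrays. With slide 1 left out 0 were called (adjusted p = 0.135 and 0.391), and with a random block for slide also 0, against 0.362% of all windows lower. Without wild type 1, 1 member window was called lower (0.181%). Both windows border or hold the stretches in which the arrays differ in input, and the part of those stretches in the difference was not tested.

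By feature, the 2 inverted repeats behaved much as each other, as probes to nearly the same sequence. The left repeat (31 probes) stood at −0.51, −1.54 and −1.28 in wild type, −0.04 and −0.66 in fft3∆, 0.18 in clr3∆ and 0.08 in the double deletion. The right repeat (42 probes) stood at −0.46, −1.43 and −1.22 in wild type, −0.03 and −0.65 in fft3∆, 0.14 in clr3∆ and 0.15 in the double deletion. These are not independent measurements. To the right of the right repeat (33 probes) the ratio in wild type was −0.18, −0.79 and −0.40, closer to the array median on each array, and clr3∆ was higher than its wild type by 0.16, against 1.36 within the repeat.

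The mat3 cassette stood out from its surroundings. In the reference its sequence is nearly that of mat1, so its 27 probes may not tell mat3 from the expressed mat1. Which cassette these cells carried at mat1 is not given. Its ratio was 0.38, 0.21 and 0.04 in wild type 1, 2 and 3, between −1.41 to −0.06 in the 1926 bases before it and −1.86 to −0.52 in the 1217 bases after it. It was 0.72 and 0.09 in fft3∆, 0.58 in clr3∆ and 0.78 in the double deletion. The highest wild-type mean of any member with input on all wild-type arrays (333 probes) was in the cassette, at 36151–36210 (0.53 ± 0.20, SD, n = 3). The lowest was at 37301–37360, just outside the right repeat (−1.48 ± 0.61, SD, n = 3), where the arrays read −0.78, −1.89 and −1.78 in wild type, −0.08 and −1.47 in fft3∆, −0.41 in clr3∆ and −0.12 in the double deletion.

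The stretch just left of the cassette, 33001–34926 (38 probes), had input on every array and parted slide 1 from the other slides. Wild type 1 read −0.06 and fft3∆ 1 0.60, while wild type 2, fft3∆ 2 and wild type 3 read −1.41, −1.33 and −1.17. The clr3∆ array read 0.23 and the double deletion 0.66. In the high-input stretch to its left the same 7 arrays read −1.23, −0.85, −1.09, −1.10, −1.18, 0.17 and 0.75, so wild type 1 lay with the other wild-type arrays there and apart from them 1 stretch further on. In the 23 probes past the left repeat, 21562–22716, which all had input on slide 1 and in the double deletion alone, the ratio was −0.20 in wild type 1, −0.09 in fft3∆ 1 and 0.25 in the double deletion.

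The array also carries the outer parts of this locus among its chromosome II probes, and these gave nearly the same mean ratios. Pairs with input numbered 125 in the right part on every array. In the left part they numbered 54 on the arrays of slide 1 and in the double deletion, 34 on those of slide 2, and 32 in wild type 3 and clr3∆. The probes of a pair shared at least 40 bases on the right and 50 on the left, and the mean ratio of contig and chromosome II probes differed by −0.04 to 0.03 on every array. Over pairs, the ratios correlated at 0.84 (double deletion) to 0.98 (wild type 2) in the right part. In the left part this ran from 0.60 (double deletion) and 0.61 (wild type 3) to 0.99 (wild type 2). In their means the contig values there therefore repeat those of the chromosome, as technical duplicates of the same DNA.

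Set beside other regions of the array, the silent side of the contig had a wider spread between its wild-type arrays. The wild-type SD of the region mean was 0.42, against 0.09 in each arm of the outer repeats of centromere 2 (319 and 300 probes), 0.10 at the right end of chromosome II (999 probes) and 0.07 on the mat1 side of the contig (400 probes), which read 0.31 ± 0.07 (SD, n = 3) in wild type. The mating-type locus on chromosome II (480 probes), part of which repeats the same DNA, had an SD of 0.16, and clr3∆ exceeded wild type there by 0.42 within slide 3. With the block, 5 of its 13 windows were called higher in clr3∆ and 3 in fft3∆, against 4.89% and 2.35% of all windows. Within slide 3 clr3∆ exceeded wild type by 1.36 on the silent side, by 1.12 and 1.03 in the outer repeats, by 0.57 at the chromosome end and by 0.12 on the mat1 side. The double deletion exceeded clr3∆ by 0.17 on the silent side, by 0.78 and 0.74 in the outer repeats and by 0.36 at the chromosome end. In the high-input stretch of the silent side alone, clr3∆ exceeded wild type by 1.34 and the double deletion exceeded clr3∆ by 0.58. With slide as a block, clr3∆ was called higher in 10 of the 11 member windows, 15 of the 17 windows of the outer repeats, 12 of the 26 at the chromosome end and 1 of the 10 on the mat1 side. fft3∆ was called higher in 5, 0, 16 and 1 of the same windows. The shares of all windows called higher were those just given for this fit. Differences between regions were not tested.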

How the data were processed

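H3-FLAG ChIP DNA (red, Cy5) and whole-cell extract DNA (green, Cy3) were hybridised together on 7 Agilent arrays always in that dye orientation, so that dye bias remains in levels and cancels between arrays. Per the labels' protocols, fragments of 500 to 1000 bp were amplified with random primers before labelling, which blurs edges. The deposited spot intensities came from Agilent Feature Extraction (version 10.7.3.1 for slide 1, 12.0.3.1 for slides 2 and 3, per the file headers), with background subtracted and dyes normalized within each array. The deposited series table holds log2 values, equal to the log2 ratio of the processed intensities and not centred. A log10 ratio column and flags of 0 or 1 were deposited too; the flags were used. For the probe coordinates, no genome build is named in the labels or headers.

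The log2 ratio of processed intensities was centred on the array median. Nonuniform and outlier spots were left out, as were, array by array, probes whose input was not well above background. All 1105 windows of 2 kb with at least 3 usable probes were fitted in limma 3.58.1 (R 4.3.3), 1 coefficient per genotype, 7 arrays together. Calls were made at a Benjamini-Hochberg adjusted p under 0.05 over all windows. On simulated windows with 200 changed by 1 log2 unit, 200 were recovered for fft3∆ with 13 false calls, and 200 for clr3∆ with 8. All simulated windows had the median wild-type spread, also for clr3∆, and no effect of slide, so this recovery does not carry over to the real arrays. Member windows with a wider spread had differences above 1 that were not called. The deviations of wild type and fft3∆ on a slide correlated at 0.60 (slide 1) and 0.34 (slide 2) over 1104 windows, and at 0.22 and 0.26 over 10 member windows; since slides hold several genotypes, values with slide as a block are given beside the others. The fit with slide as a block had an unlimited prior, that is 1 spread for all windows. For clr3∆ and the double deletion it compares single arrays of slide 3, with the spread taken from wild type and fft3∆ on slides 1 and 2. Alternatives are listed in the closing section; normexp used median spot signals, as the files hold no mean spot signals. All 11 windows are described, features are named only where the reference pairs them with members, and single probes only at ends of stretches without input and at the highest and lowest wild-type mean. Members, windows and regions were chosen with earlier results of these data known, and the stretches by feature and by input after the values were seen. Precision is limited by how few arrays there are.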

Additional observations from a re-analysis of the deposited data

Results flagged for a closer look

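In 2 of the 11 windows the effect of losing Fft3 differed between the clr3∆ and the wild-type backgrounds when slide was a block: the interaction was −1.11 in the window from 22001 (limma adjusted p = 9.6e-05) and −1.09 in that from 24001 (adjusted p = 0.000121). That fit gave all windows 1 common spread, so these p-values do not follow the scatter of these 2 windows. Within slides, fft3∆ exceeded wild type in these windows by 0.25 and 0.12 on slide 1 and by 1.12 and 1.34 on slide 2. The double deletion stood below clr3∆ on slide 3, with 1 array of each, at −0.42 and −0.36. Neither passed without the slide term, with slide as a random block, or with slide 1 left out (adjusted p = 0.135 and 0.391). The mean log2 input of the window from 22001 was −1.94, −2.09, −2.17 and −2.65 in wild type 2, fft3∆ 2, wild type 3 and clr3∆, and −0.46 in the double deletion, and the part of this difference in the result was not tested. No group held enough arrays for a test of single outlying arrays.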

How the results depend on the processing

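Without a slide term fft3∆ had 0 called windows of 11. That became 5 with slide as a replicate block (2.35% of all windows higher) and 0 with slide as a random block (0.452%). With slide 1 left out (added after seeing the data), fft3∆ is 1 array with no spread of its own. Leaving out 1 array at a time gave 0 to 3, the 3 without wild type 1 (0.543%). For clr3∆, 3 called windows (2.35% of all windows) became 10 with the block (4.89%), 6 with slide as a random block (3.53%) and 10 with slide 1 left out (3.62%). They became 5 with quantile normalization (2.71%), 1 with all members kept (2.17%) and 6 of 22 with 1-kb windows (1.59%). Leaving out 1 array gave 2 to 8, the 8 without wild type 1 (3.26%). The double deletion went from 3 (4.34% of all windows higher, 1.45% lower) to 10 with the block (6.15% higher, 1.9% lower). It had 6 with the random block (5.52% higher, 2.17% lower) and 10 with slide 1 left out (5.52% higher, 0.724% lower). With quantile normalization it had 7 (5.79% higher, 2.53% lower) and with 1-kb windows 6 of 22 (3.54% higher, 0.771% lower). Leaving out 1 array gave 2 to 10. The 3 main calls of clr3∆ and of the double deletion remained under the block, the random block, slide 1 left out and quantile normalization. Against clr3∆ the double deletion had 2 called windows with the block (3.44% of all windows higher, 2.53% lower), against 0 without a slide term. With quantile normalization it had 1 (2.26% higher, 0.814% lower). Input of the double deletion changed in 10 windows with the block (6.61% of all windows higher, 3.35% lower), against 0. Stretches without input numbered 10, against 18, when defined by a log2 input at least 3 below the median. All 4 differences of region means kept their sign and moved by less than the wild-type SD of 0.42 under every setting run, region values outside 25 to 33 kb of the contig included. The fft3∆ difference from 26001, −0.29, turned to 0.53 with all members kept, 0.12 with normexp, 0.50 with at least 10 probes, 0.57 with the replicate block, 0.058 with the random block and 0.50 with slide 1 left out, and ranged from −0.72 to 0.50 by leaving out 1 array. That from 30001 turned to −0.012 with quantile normalization, and those from 32001 and 34001 to −0.045 and −0.015 with slide 1 left out. Leaving out 1 array gave −0.24 to 0.95 from 32001, −0.24 to 0.91 from 34001 and −0.12 to 1.11 from 36001, negative without fft3∆ 1. In each case the cause was not tested.

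The precision is limited by 1 array each of clr3∆ and the double deletion, by 3 input states among the arrays, and by signal: a probe without input has no ratio. Positions from 22717 to 34926 have no reference sequence here, and probes to repeats measure all copies together.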
